A study of Mus musculus with 9 samples.

Results

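The arrays described here are the 3 of 9 mouse olfactory bulb arrays on which Tbr1 read highest, set against the other 6 arrays. The threshold on its log2 signal lay in the gap between 10.99 and 12.11. Tbr1 encodes a T-box transcription factor of glutamatergic neurons. The 3 arrays, called the high arrays, were vehicle replicate 3, 1% replicate 2 and 10% replicate 2, so each treatment group held 1 high array and 2 low arrays. The Tbr1 reading nearest above the threshold was 12.11 (vehicle replicate 3), and the nearest below it was 10.99 (1% replicate 3). Because a measured gene chose the arrays, and because all genes on an array come from the same RNA, the difference between high and low arrays is given below as a description, with no test.

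The study exposed male ICR mice, 8 weeks old and housed singly, to aerosols from a diffuser, inhaled with the whole body exposed, for 7 days, and recorded behaviour in the tail suspension test after 30 min of inhalation. The vehicle group inhaled 1% Tween 80, an emulsifier, and the other groups inhaled linalyl acetate, a scent ester of lavender oil, at 1% or 10%. RNA of the olfactory bulb was hybridised to 1 whole-transcript array per sample, 3 arrays per group. Whether Tween 80 was present in the scented aerosols, whether 1 bulb or both were taken, and where the bulb was cut from the forebrain are not given in the labels. Groups follow the sample titles, with which the source names and the group list of the growth protocol match. The free-text descriptions of 5 arrays name other treatments by mouth and by injection: saline for vehicle replicates 1 and 2, an injection of lipopolysaccharide for vehicle replicate 3, and oleacein with lipopolysaccharide for 1% replicates 1 and 2. Within the vehicle group the high array is therefore also the array whose description differs, and these cannot be told apart. The series' design text likewise names a human cell line and a human array, while the deposited probe sets carry mouse symbols.

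The olfactory bulb is layered. Axons of olfactory sensory neurons enter through an outer nerve layer, wrapped by olfactory ensheathing glia, and contact mitral and tufted cells in glomeruli, where periglomerular interneurons release GABA and, in many cells, dopamine. Mitral and tufted cells are the glutamatergic output neurons, granule cells are the deep GABAergic interneurons, and new interneurons arrive along the rostral migratory stream. Behind the bulb lie the anterior olfactory nucleus and the frontal and piriform cortex, whose glutamatergic neurons come from the pallium and express genes such as Neurod6, Slc17a7 and Tbr1, and below these lie the olfactory tubercle and striatum. Tbr1 is expressed by bulb output neurons as well as by cortical neurons, so it does not by itself name a region.

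The promoters of a neuropeptide gene that was higher in the high arrays, Sst, and of a bulb enzyme gene that was lower there, Th, are shown because both hold the full palindromic cyclic AMP response element, TGACGTCA, in nearly the same place. The windows run from 250 bases before to 50 bases after the RefSeq gene start, on the gene's own strand, in mouse build GRCm38.p6, and the capitals mark the element. The Sst window is chr16:23890795-23891094 on the minus strand, with the element starting 48 bases before the gene start, and the Th window is chr7:142899946-142900245 on the minus strand, with the element starting 45 bases before it.
Sst: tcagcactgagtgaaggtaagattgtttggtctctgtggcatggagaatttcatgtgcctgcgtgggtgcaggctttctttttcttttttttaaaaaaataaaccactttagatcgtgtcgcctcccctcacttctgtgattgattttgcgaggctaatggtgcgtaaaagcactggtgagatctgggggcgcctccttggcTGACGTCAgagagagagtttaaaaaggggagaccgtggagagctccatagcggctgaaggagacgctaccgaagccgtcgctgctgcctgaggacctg
Th: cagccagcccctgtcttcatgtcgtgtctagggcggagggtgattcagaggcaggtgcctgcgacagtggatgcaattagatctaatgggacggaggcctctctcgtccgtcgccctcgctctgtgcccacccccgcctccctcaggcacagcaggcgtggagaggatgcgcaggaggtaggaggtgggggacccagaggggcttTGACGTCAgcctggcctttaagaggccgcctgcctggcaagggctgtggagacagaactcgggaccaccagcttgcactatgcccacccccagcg
The element reads the same on both strands. It occurred in 1.79% of all 32851 RefSeq promoter windows of this length and in 2.61% of the windows of 15541 genes measured here. Among genes called higher in the high arrays by the rule given next, 7 of 138 with a window held it (Sst, Sstr2, Kif5c, Mapk10, Neurl1a, Olfm2 and Plk2), and among those called lower 1 of 12 held it, Th. A match is a stretch of letters and not a measured binding site.

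All values are log2 signals normalised by the authors. The difference of a gene is the high array minus the mean of the 2 low arrays of the same group, averaged over the 3 groups and given with the SD of the 3 group differences. A gene was called higher or lower where all 3 high arrays lay beyond all 6 low arrays and the mean difference was at least 1 log2 unit, that is at least 2-fold. Of 21367 probe sets with a single gene symbol, 198 were called higher (0.927%) and 16 lower (0.0749%). Since the split was itself made on these arrays, nothing is read from these shares. Without the size limit, 902 probe sets (4.22%) were higher and 565 (2.64%) lower in every high array than in every low array. The median difference over all probe sets was -0.02, and 45.7% lay above 0, so the excess of calls upward came from a limited set of genes. Differences of 2 or more were found for 39 probe sets above 0 and for 2 below 0. Those 2, Masp2 and Gm11096, rested on a single array: Masp2 read 4.24 and Gm11096 read 3.21 on 1% replicate 2, while the other 8 arrays read at least 9.18 and 7.69.

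**Figure D1:**
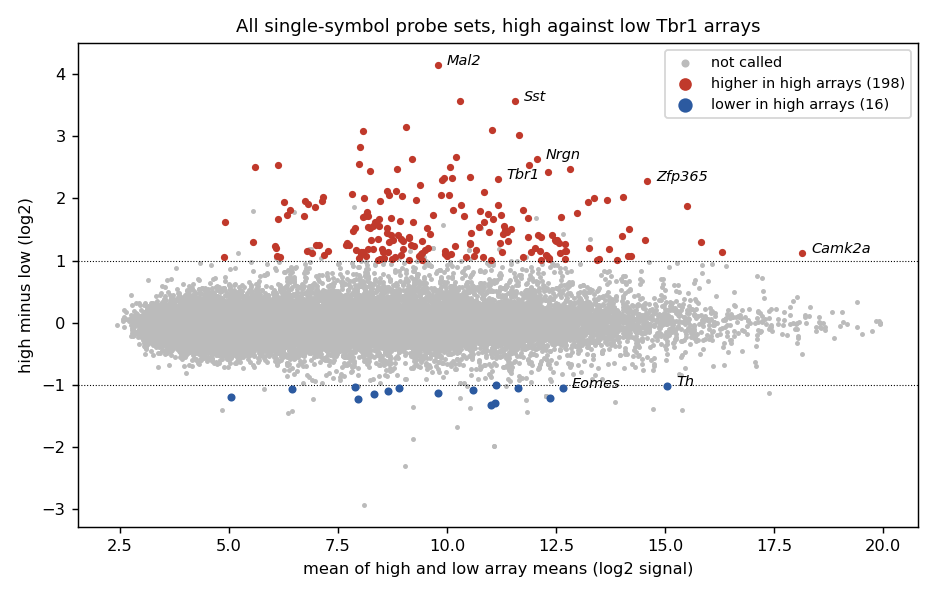
Each point is a probe set, with the mean of the high and low array means (log2 signal) on the horizontal axis and the mean high minus low difference (log2) on the vertical axis; coloured points are the 198 called higher and the 16 called lower. The genes called higher reach 4.15 (Mal2), while no gene called lower goes below -1.32 (Hey2).

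Mal2 and Sst had the largest differences among genes with an assigned name. Mal2, a membrane protein of polarised vesicle traffic, read 7.17, 6.99 and 12.15 in the vehicle group, 9.13, 11.75 and 9.60 at 1%, and 6.25, 11.69 and 7.13 at 10% (replicates 1, 2 and 3 in this order, here and below). The high arrays lay within 0.46 units of each other, while the low arrays spread over 3.35 units, and the mean difference was 4.15 ± 1.53 (SD, n = 3 groups), or 17.8-fold. Sst, the neuropeptide somatostatin whose promoter is printed above, read 8.96, 9.70 and 13.18, then 10.44, 13.43 and 11.26, then 8.88, 13.43 and 9.39. Its high arrays stood at least 1.92 units above the brightest low array, 1% replicate 3. Tbr1 itself read 9.54, 9.70 and 12.11, then 10.52, 12.32 and 10.99, then 9.52, 12.54 and 9.75, a difference of 2.32 ± 0.69 that the rule fixed.

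The other genes named by size are given here with what each is known to do. C1ql3, a secreted C1q-like protein of synapses, was higher by 3.15 ± 0.72, and Rph3a, the Rab3 effector rabphilin of synaptic vesicles, by 3.08 ± 0.34. Nrgn, the postsynaptic calmodulin-binding protein neurogranin, read 10.46, 10.70 and 12.66, then 10.71, 13.63 and 11.03, then 10.78, 13.83 and 10.71. Its 6 low arrays lay close together (10.73 ± 0.18, SD, n = 6), and all 3 high arrays were above them. Cnr1, the CB1 cannabinoid receptor, was higher by 2.66 ± 0.90, Htr2c, a serotonin receptor, by 2.51 ± 0.95, and Rgs4, which shortens signalling by G proteins, by 2.53 ± 0.67. Itpka, the inositol trisphosphate kinase of dendritic spines, was higher by 2.54 ± 0.52, and Lingo1, a co-receptor of the Nogo receptor, by 2.47 ± 0.50. The remaining genes named by size were Enc1 (3.10), Nov (3.02), Caln1 (2.63) and Gng7 (2.47). Gng7, a G protein gamma subunit rich in striatum, stood apart from the rest by reading 11.33 on the vehicle high array against 9.63 and 9.29 on the other high arrays.

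**Figure D2:**
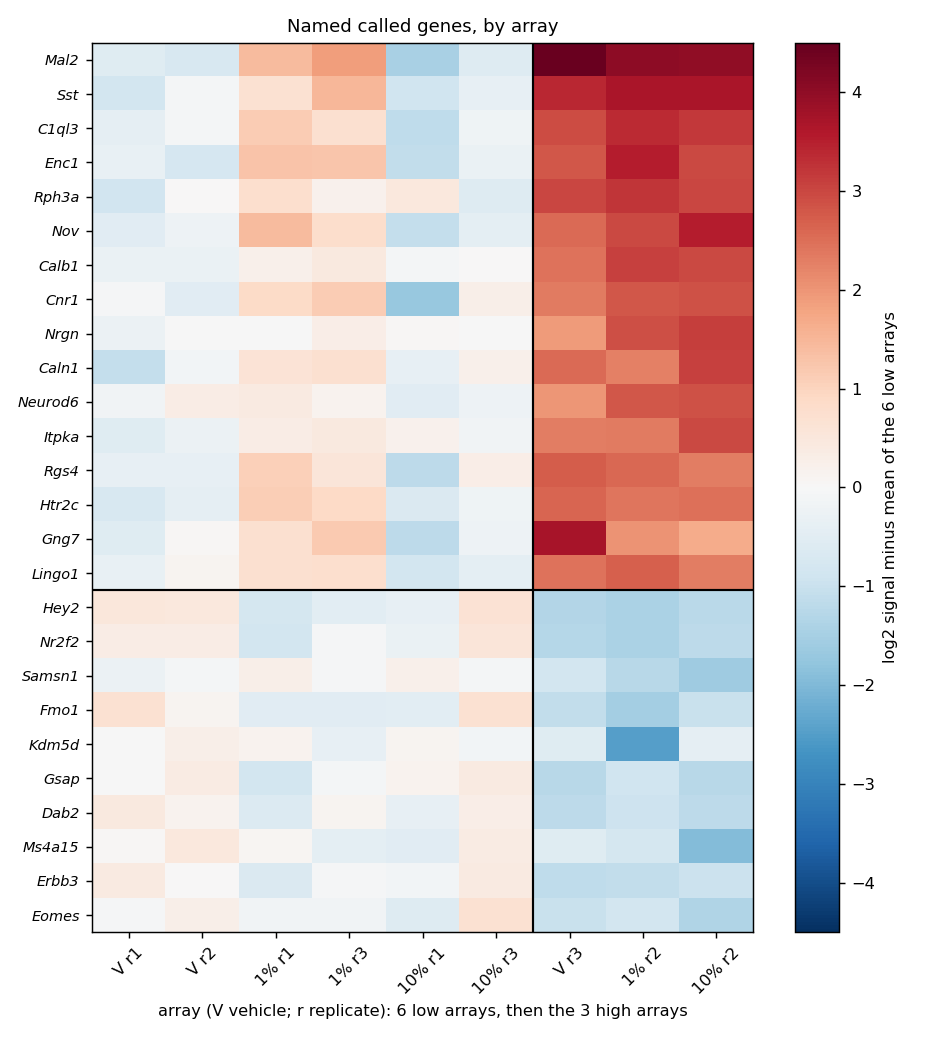
Rows are the named genes called higher or lower, columns are the 6 low arrays followed by the 3 high arrays, and the colour is each array's log2 signal minus the mean of the 6 low arrays. For the genes called higher, the 3 high arrays, right of the line, are the most strongly coloured columns. Rows of genes called lower are mostly paler, with mean differences of -1.32 to -1.06. The low arrays of the 1% group lie between the high arrays and the other low arrays for Mal2, Enc1 and Htr2c.

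Of the 12 measured markers of pallial glutamatergic neurons, Tbr1 chose the arrays and is left out of the counts here. The other 11 were all higher in the high arrays, with a median difference of 1.06 against -0.02 over all genes, and 7 were called higher. Over all probe sets 0.927% were called higher and 0.0749% lower, here and for the lists and families below, and as the arrays were split on this signal nothing is read from the counts beside these shares. Neurod6, a basic helix-loop-helix factor of these neurons, read 6.53, 7.04 and 8.68, then 7.11, 9.50 and 6.87, then 6.19, 9.57 and 6.48. The high and low arrays did not overlap, and the difference was 2.55 ± 0.67. Slc30a3, the zinc transporter of glutamatergic synaptic vesicles, was higher by 2.33 ± 0.71 and the related factor Neurod2 by 1.72 ± 1.08. The other members called were Nptx1 (1.18), Rtn4r (1.12), Nrn1 (1.06) and Lmo4 (1.01). Slc17a7, the vesicular glutamate transporter VGLUT1 that bulb output neurons also carry, differed by 0.91 with overlapping arrays. Emx1 and Mef2c differed by 0.23 and 0.21 and overlapped too, so the markers of the class were not all higher to the same degree. The mean level of the 11 markers was 10.34 to 10.58 on the high arrays and 9.02 to 9.62 on the low ones.

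Markers of single cortical layers differed less: 11 of 18 probe sets were higher, with a median of 0.19 and 3 called. The called genes were Lypd1 (2.04 ± 0.29), Crym (1.28 ± 0.46), which encodes a thyroid hormone binding protein, and 1 of 2 probe sets of Rorb (1.13 ± 0.57), a nuclear receptor known for layer 4. Fezf2, the factor of deep-layer projection neurons, differed by 0.89 ± 0.40 with overlapping arrays, and Bcl11b and Tle4 by -0.05 and -0.09. Of 15 markers of cortical-type interneurons 9 were higher and 6 lower, down to -0.53, and Sst alone was called. The medians of this list within the groups were -0.15 (vehicle), 0.295 (1%) and 0.22 (10%). Pvalb, the calcium-binding protein parvalbumin, differed by 0.77 ± 0.82, Vip by 0.74 ± 0.10 and Lhx6, the factor that specifies Sst and Pvalb cells, by 0.69 ± 0.67, and the median of the list was 0.16. Lhx6 read 3.06 to 3.40 on the low arrays, 3.68 and 3.43 on the vehicle and 1% high arrays and 4.66 on the 10% high array, far below the median signal of all values of 6.94.

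No marker of regions further from the bulb was called in 3 lists. Of 6 hippocampal markers 5 were higher, with a median difference of 0.11, and of 6 basal forebrain cholinergic markers 5 were higher, with a median of 0.15. Of 18 markers of hypothalamus, brain stem, thalamus and cerebellum 15 were lower, with a median of -0.11. Fibcd1 of the hippocampal list (-0.34) and Lhx8, a factor of cholinergic neurons (-0.30), lay below all low arrays in all 3 high arrays. The cholinergic enzyme Chat read 2.46 to 3.18 over all 9 arrays. The 4 claustrum and endopiriform markers had a median of -0.13 over their mean differences, while the medians within the groups were 0.20 (vehicle), 0.02 (1%) and 0.03 (10%), so no direction can be given.

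**Figure D3:**
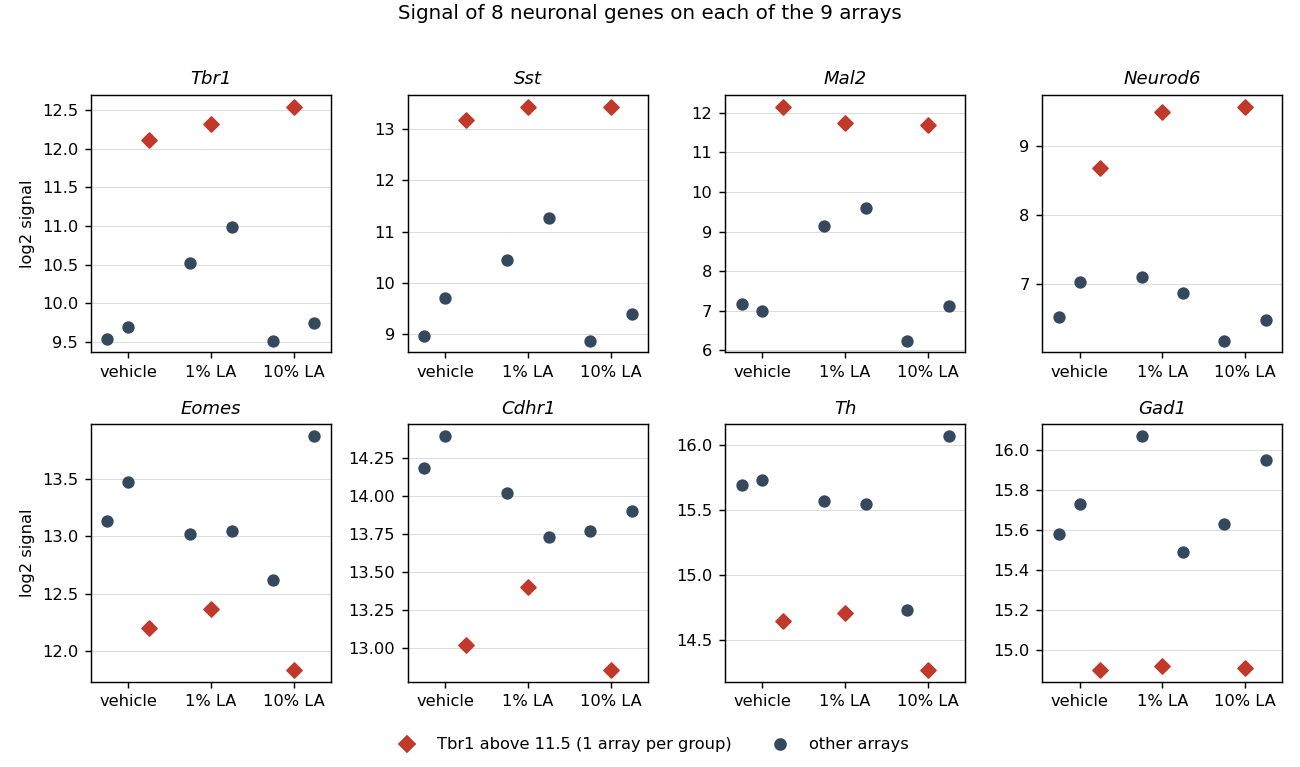
Log2 signal of 8 neuronal genes on each of the 9 arrays, grouped by treatment; diamonds are the 3 high arrays and circles the 6 low arrays, and each panel has its own scale. Neurod6 and Sst are higher, and Eomes and Th lower, on the diamonds in every group.

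Striatal markers split the high arrays from each other. Of 23 markers 17 were higher on average, with a median of 0.30 and none called, and the median was 1.06 in the vehicle group, -0.14 at 1% and 0.17 at 10%. Drd1, the D1 dopamine receptor, read 5.27, 6.0 and 8.45 in the vehicle group, 5.36, 5.70 and 6.57 at 1%, and 5.60, 5.79 and 5.23 at 10%. The vehicle high array was the brightest of the 9, and the next was 1% replicate 3, a low array. Tac1, the precursor of substance P, read 12.55 on the vehicle high array, 10.87 on 1% replicate 3 and at most 10.16 elsewhere. The mean level of the list was 9.10 on the vehicle high array, 8.46 on 1% replicate 3 and 7.68 to 8.01 on the other 7 arrays.

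Bulb output neurons did not follow the pallial markers. Of 13 mitral and tufted cell markers 8 were lower in the high arrays, with a median of -0.08. Eomes, the T-box factor Tbr2 of mitral and tufted cells, read 13.13, 13.47 and 12.20, then 13.02, 12.37 and 13.05, then 12.62, 11.84 and 13.87. Every high array was below every low array, by 1.06 ± 0.37 on average, the opposite direction to its relative Tbr1. Cdhr1, a cadherin of these cells, was also below all low arrays in the 3 high arrays (-0.91 ± 0.40), and so was Spp1, osteopontin (-0.96 ± 0.47). Tbx21, a further T-box factor of the output neurons, differed by -0.31 with overlapping arrays, Slc17a6, the transporter VGLUT2, by 0.07 and Reln by -0.46. Kcng1 and Adcyap1, the neuropeptide PACAP, went the other way at 0.73 and 0.62. Kcng1 read 6.99 to 7.31 on the high arrays and 6.08 to 6.65 on the low ones. Of the 13 markers, 3 lay below and 2 above all low arrays in all 3 high arrays. In bulk RNA, fewer cells of a type and less RNA per cell cannot be told apart, here or for the lists below.

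GABAergic genes of the bulb were lower throughout. Of 19 markers of granule cells and other GABAergic bulb neurons none was higher in the high arrays, the median was -0.66, and 12 were below all low arrays in all 3 high arrays, though none reached 1 log2 unit. Gad1, the enzyme that makes GABA, read 15.58, 15.73 and 14.90, then 16.07, 14.92 and 15.49, then 15.63, 14.91 and 15.95. The 3 high arrays agreed to 0.02 units, and the group differences were nearly equal (-0.83 ± 0.07). Sp8, a zinc finger factor of bulb interneurons, differed by -0.97 ± 0.38, Calb2, calretinin, by -0.84 ± 0.20, Dlx1 by -0.83 ± 0.32 and Tshz1 by -0.77. Slc32a1, the vesicular GABA transporter, and Gad2 differed by -0.67 and -0.66. These GABAergic markers are also carried by interneurons and striatal neurons outside the bulb. Dcx, the microtubule protein of migrating neuroblasts, differed by -0.64 ± 0.21, while the 13 markers of neuroblasts and the migratory stream had a median of -0.07.

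The periglomerular list held calls in both directions. Th, tyrosine hydroxylase, the first enzyme of dopamine synthesis, read 15.69, 15.73 and 14.65, then 15.57, 14.71 and 15.55, then 14.73, 14.27 and 16.07, a difference of -1.01 ± 0.15. Its vehicle and 1% high arrays lay only just below the dimmest low array, 10% replicate 1 at 14.73. Calb1, calbindin, which marks a class of periglomerular cells and many cortical and striatal neurons, was higher by 2.83 ± 0.14 and read 9.04 to 9.66 on the high arrays against 6.29 to 7.02 on the low ones. Trh and Scgn, secretagogin, differed by -1.01 ± 0.53 and -0.68 ± 0.07 with overlapping arrays.

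Markers of the bulb surface are given by list. Of 15 meningeal markers none was higher in the high arrays, with a median of -0.31. Dcn, the matrix proteoglycan decorin, read 11.58, 11.64 and 9.77, then 9.90, 9.0 and 11.13, then 10.87, 10.76 and 12.13, so the high array was the lowest of its group each time while the arrays overlapped across groups. Of 9 markers of olfactory ensheathing glia 8 were lower, with a median of -0.69 and group medians of -1.03 (vehicle), -0.31 (1%) and -0.49 (10%). Fabp7, a fatty acid binding protein also found in astrocytes, differed by -1.13 ± 0.56 and Frzb, a secreted Wnt antagonist, by -0.79 ± 0.24. Both had overlapping arrays, and 1 of the 9 markers lay below all low arrays in all 3 high arrays. Of 14 markers of olfactory sensory neurons 10 were lower and 4 higher, with a median of -0.07 and none called or beyond all low arrays. Those that differed most were lower: S100a5 differed by -1.27 ± 0.37, Omp, the olfactory marker protein, by -1.21 ± 0.59 and Stoml3 by -0.93 ± 0.72. Omp read 11.81, 10.91 and 9.91, then 9.99, 8.58 and 10.47, then 10.62, 10.58 and 11.62, and here too the high array was the lowest of each group. None of the 1079 odorant receptor probe sets was called in either direction.

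Of 11 nasal epithelium markers 5 were higher and 6 lower in the high arrays, with a median of -0.10 and none called. Bpifb9a had the largest mean difference (-0.68 ± 0.49), below 0 in each of the 3 groups, and its arrays overlapped. Obp1a, an odorant-binding protein of nasal glands, read 5.32 to 5.72 in the vehicle group, 8.41, 5.35 and 10.41 at 1% and 5.57, 10.15 and 9.84 at 10%. High levels were therefore found on 1 high array and 3 low arrays, all of them exposed to linalyl acetate, and 1 array of each exposed group read like the vehicle arrays.

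Myelin genes were higher in the high arrays. Of 17 markers of myelinating oligodendrocytes 15 were higher, with a median of 0.51 and group medians of 0.64, 0.44 and 0.52 (vehicle, 1% and 10%), and 5 lay above all low arrays in all 3 high arrays without reaching 1 log2 unit. Mobp, which encodes a myelin-associated basic protein, read 11.41, 11.22 and 12.60, then 12.07, 12.33 and 11.71, then 10.34, 11.78 and 11.54. Its high array was the brightest of each group, with overlap across groups. Ermn differed by 0.83 ± 0.34, Ugt8a, which makes the myelin lipid galactosylceramide, by 0.82 ± 0.29 and Tspan2 by 0.87 ± 0.42. The 8 oligodendrocyte precursor markers had a median of 0.21.

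Of 16 astrocyte markers 11 were lower and 5 higher, with a median of -0.11. Slc1a2, the glutamate transporter GLT-1, was called higher (1.13 ± 0.27), and Agt, angiotensinogen, differed by -0.75 ± 0.41. Slc1a2 read 16.81 to 16.91 on the high arrays and 15.30 to 16.05 on the low ones, while the intermediate filament gene Gfap differed by -0.10 ± 0.28. Of 16 microglial markers 13 were higher with a median of 0.22 and none called, the largest being Aif1, the protein Iba1, at 0.70 ± 0.19. Of 18 endothelial and mural markers 10 were higher, with a median of 0.03, and of 11 choroid plexus and ependymal markers 9 were lower, with a median of -0.17, and none was called in either list.

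**Figure D4:**
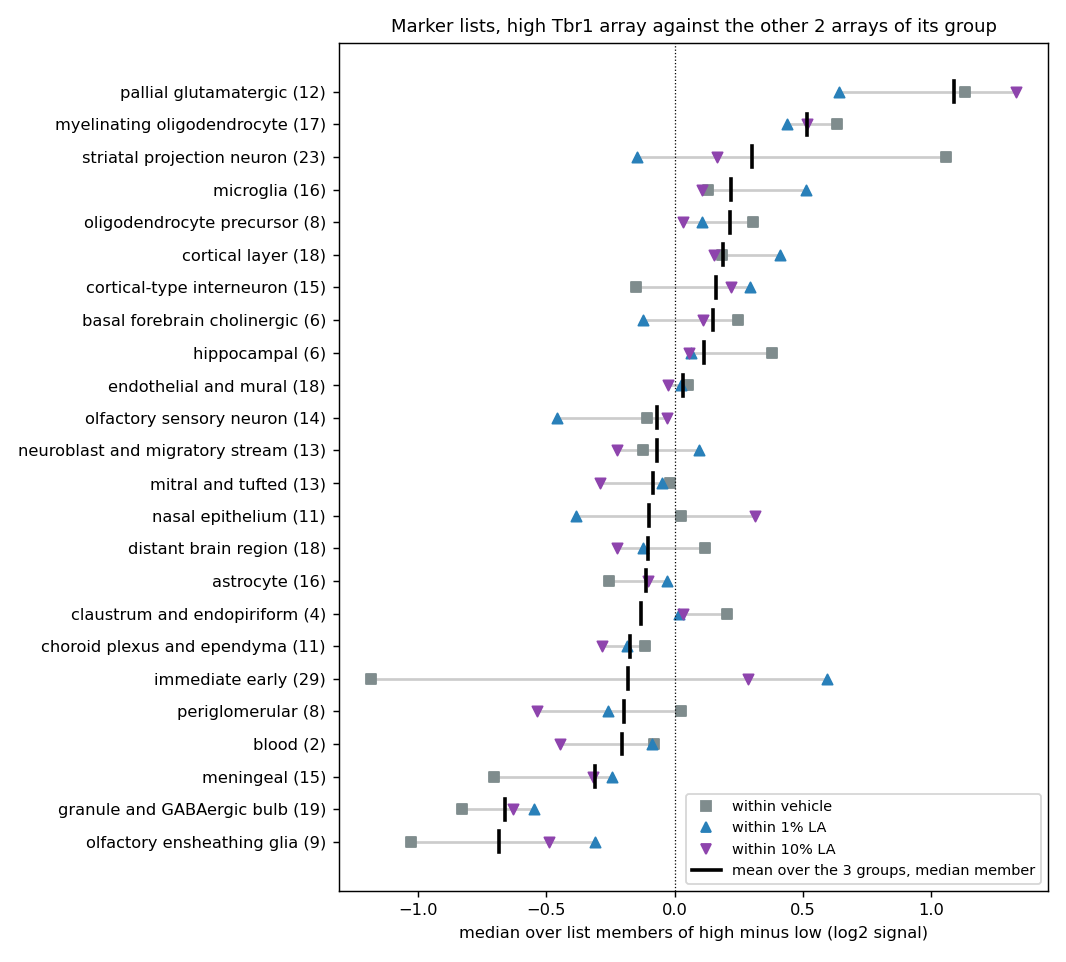
Each row is a marker list; squares and triangles are the median high minus low difference (log2) of its members within each treatment group, and the black bar is the median over members of the mean of the 3 groups. Numbers in brackets count the probe sets. The pallial list (median 1.09, Tbr1 included) and the myelin list (0.51) lie to the right of 0, and the granule and GABAergic (-0.66), ensheathing glia (-0.69) and meningeal (-0.31) lists to the left.

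The 16 genes called lower were few and mixed. Hey2, a transcriptional repressor downstream of Notch, read 12.17, 12.13 and 10.35, then 10.86, 10.23 and 11.19, then 11.29, 10.44 and 12.31. The high arrays were the lowest of all, although 1% replicate 1 at 10.86 came within 0.42 units of them. Nr2f2, the nuclear receptor COUP-TFII, differed by -1.30 ± 0.32, Fmo1, a flavin monooxygenase, by -1.21 ± 0.25, Dab2, an endocytic adaptor, by -1.10 ± 0.40 and Erbb3, a neuregulin receptor, by -1.06 ± 0.30. Samsn1 (-1.22), Gsap (-1.14) and Ms4a15 (-1.08) were the others named by size. Kdm5d, a histone demethylase on the Y chromosome, was called at -1.15 ± 1.07, but 1% replicate 2 read 6.42 while the other high arrays read 8.35 and 8.50 and the low arrays 8.53 to 9.17, so its size rested on that array.

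Gene families were counted by symbol after the values were seen. Of 95 potassium channel probe sets 4 were called higher, Kcnab1 (1.96), Kcnv1 (1.73), Kcnt2 (1.42) and Kcnq3 (1.07), or 4.21%, and the family median was 0.02. Of 17 synaptotagmins 12 were higher (median 0.23) and 2 called (11.8%), Syt17 (2.29) and Syt16 (1.54). Of 14 calcium/calmodulin kinase genes 11 were higher (median 0.35) and 2 called (14.3%), Camk2a (1.12) and the inhibitor Camk2n1 (1.31). Of 14 serotonin receptors 8 were higher (median 0.08) and 2 called (14.3%), Htr2c and Htr1b (1.24). Of 10 adenylyl cyclases 8 were higher (median 0.19) and Adcy1 (1.54) was called, and of 7 metabotropic glutamate receptors 3 were higher (median -0.23) and Grm3 (1.44) was called. Of 26 calcium channel, 21 GABA receptor, 24 regulator of G protein signalling and 23 phosphodiesterase probe sets, 1 each was called, Cacna2d3, Gabbr2, Rgs4 and Pde1a. None of 20 ionotropic glutamate receptor, 10 sodium channel alpha subunit, 43 collagen, 68 ribosomal protein or 36 complex I probe sets was called.

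The genes whose signal followed Tbr1 most closely over the 9 arrays, after each group's mean was removed, were Neurl1a (r = 0.997), Sst (r = 0.997), Pdp1, Actr3, Kif5c and Gabbr2 (each r = 0.994), Lingo1 and Mal2 (each r = 0.991). These correlations are across 9 arrays of which 3 stand apart by choice, so they describe that split. Neurl1a, a ubiquitin ligase, was higher by 2.33 ± 0.73 and Kif5c, a kinesin motor of neurons, by 2.01 ± 0.43. Actr3, a subunit of the actin-branching Arp2/3 complex, differed by only 0.38 ± 0.09 but with arrays that did not overlap (13.60 to 13.71 against 13.12 to 13.45).

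The 6 low arrays were not alike. The mean level of the 198 genes called higher was 10.65, 10.79 and 10.78 on the high arrays, 9.46 and 9.55 on the low arrays of the 1% group, and 8.85 to 9.06 on the other 4 low arrays. Both low 1% arrays lay above the other 4 low arrays for 101 of the 198 genes (51.0%), as against 1344 of all 21367 probe sets (6.29%). Mal2 and Tbr1 showed this order in the readings above. The median difference of the 198 genes was 1.48 in the vehicle group, 1.16 at 1% and 1.66 at 10%. The brightest high array was vehicle replicate 3 for 49 genes, 1% replicate 2 for 73 and 10% replicate 2 for 76.

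Technical readings of the arrays differed little. The median log2 signal was 6.93 to 6.94 on the high arrays and 6.92 to 6.97 on the low ones, and correlations between arrays across genes were 0.985 to 0.992 for all pairs. The area under the curve that separates positive from negative control probe sets was 0.800 to 0.808 on the high arrays and 0.788 to 0.797 on the low ones, which do not overlap, and its part in the differences was not tested.

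The comparison of linalyl acetate with vehicle asks which genes of the bulb respond to the inhaled compound. Since each group held 1 high and 2 low arrays, the class did not change the estimated group differences, only their errors. With the class as a term in limma over all 9 arrays, no probe set passed an adjusted p of 0.05 (Benjamini-Hochberg over 21367) at 1% (0%, lowest adjusted p = 0.969) or at 10% (0%, lowest adjusted p = 0.943). The counts were 11 at 1% and 12 at 10% when the 3 high arrays were left out, which leaves 2 arrays per group. They were 12 and 14 when vehicle replicate 3 alone was left out. In both cases the vehicle side was replicates 1 and 2, on which Fos, Junb and Arc read highest of the 9 arrays. What part those 2 arrays had in the counts was not tested. At an unadjusted p under 0.05 there were 1023 probe sets at 1% (4.79%) and 1010 at 10% (4.73%), against 731 and 807 without the class term. The labels do not say that the replicates came from separate animals, so these p-values measure the spread between the samples. The smallest p at 1% was that of Hist1h4c, a histone gene (1.86, SE 0.299, limma adjusted p = 0.969), and at 10% that of Ifit3b, an interferon-induced gene (0.81, SE 0.154, limma adjusted p = 0.943). Adding the class narrowed the error for Mpped1 and Rasal1, which followed it. Mpped1, one of the 198, read 9.55, 9.57 and 11.07, then 10.70, 12.05 and 10.58, then 10.19, 11.87 and 9.68. Its difference at 1% was 1.05 with an SE of 0.19, against 0.586 without the class, and did not pass (limma adjusted p = 0.969). Rasal1, a Ras GTPase activating protein also among the 198, differed by 1.00 at 10% with an SE of 0.204 against 0.672 (limma adjusted p = 0.943).

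Of the 198 genes called higher in the high arrays, 178 had a higher mean at 1% than in the vehicle group, with a median of 0.34, and 61 (30.8%) had an unadjusted p under 0.05 against 4.79% of all probe sets. Of these 61, 60 were higher at 1%, a direction in which 2.56% of all probe sets had such a p. At 10% 108 of the 198 had a higher mean, the median was 0.02, and 20 (10.1%) had such a p against 4.73%, with 14 of them higher against 2.58%. None of the 198 passed the adjusted threshold in either comparison, where limma called 0 of all genes. The 1% figures run alongside the levels of the low 1% arrays given above, and these genes were chosen as a set that moves together, so the counts are not independent of each other. Genes called higher or lower were also chosen by the class that is a term in the fit. Nothing is therefore read from their shares beside those of all probe sets. Of the 16 genes called lower, 4 at 1% and 2 at 10% had an unadjusted p under 0.05, each of them lower, against 2.23% and 2.14% of all probe sets lower with such a p.

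Whether the high minus low difference was the same in vehicle as in linalyl acetate arrays was tested with a class-by-group term in limma, added after the values were seen. The vehicle high array is a single array and was assumed to vary like the others, so the term mainly restates how far vehicle replicates 1 and 2 lay from that array. It is no independent evidence of a difference between the groups. Of 21367 probe sets 8 passed in limma (0.0374%), but 1 passed with the replicate number as a block and 0 when either linalyl acetate group was left out. The 8 are all immediate early genes, which neurons switch on within minutes of activity. An unadjusted p under 0.05 was found for 1623 probe sets (7.6%). Junb, a subunit of the AP-1 factor, read 10.14, 9.89 and 6.44 in the vehicle group, 7.28, 7.69 and 7.18 at 1% and 6.86, 7.38 and 6.59 at 10%. The vehicle low arrays were far above all others, and the vehicle high array was the lowest of the 9, so that the term was -4.13 with an SE of 0.31 (limma adjusted p = 0.00212). Fos, its partner in AP-1, read 10.81, 9.87 and 6.08, then 6.62, 6.66 and 5.95, then 5.85, 6.23 and 6.21, with a term of -4.55 (limma adjusted p = 0.0169). Arc, a regulator of glutamate receptors at synapses, read 10.53, 10.40 and 7.93, then 7.95, 8.85 and 7.56, then 7.03, 7.19 and 6.82, with a term of -3.21 (limma adjusted p = 0.0284). For each of these 3 genes the vehicle replicates 1 and 2 were the highest of the 9 arrays.

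The term was below 0 for 27 of 29 probe sets of the immediate early list, with a median of -1.57. Of these, 21 had an unadjusted p under 0.05, against 3.45% of all 21367 probe sets that had such a p with a term below 0, and 8 passed after adjustment. Within groups the median high minus low difference of the list was -1.18 in the vehicle group, 0.60 at 1% and 0.28 at 10%. Bdnf, the neurotrophin, differed from the list: it read 6.66, 7.10 and 8.74, then 8.26, 8.89 and 8.24, then 6.68, 9.50 and 6.97, and was called higher (1.73 ± 1.02). The 23 striatal markers had terms above 0 in 21 cases, with a median of 1.16 and 15 at an unadjusted p under 0.05, against 4.14% of all 21367 probe sets that had such a p with a term above 0. None of them passed after adjustment. The terms of all members of both lists, immediate early and striatal, rest on the same single vehicle high array. Both lists were also chosen with earlier results of these data known. The members of a list are therefore not independent of each other, and nothing is read from either list's count beside the share of all probe sets. Tac1 had a term of 3.56 with an SE of 0.610 (limma adjusted p = 0.205) and Drd1 of 2.76 with an SE of 0.588 (limma adjusted p = 0.457).

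**Figure D5:**
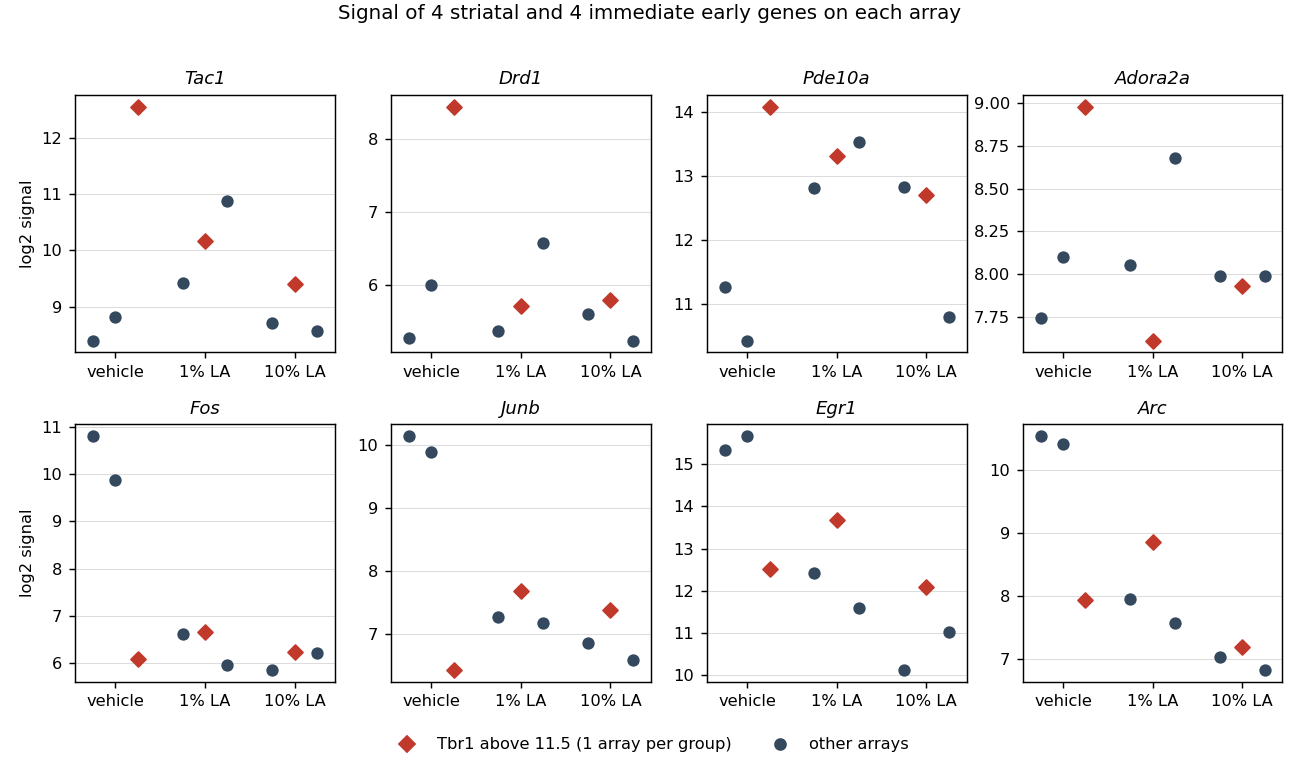
Log2 signal of 4 striatal genes (upper row) and 4 immediate early genes (lower row) on each array, by treatment group; diamonds are the high arrays and circles the low arrays, and each panel has its own scale. The vehicle diamond is the highest point for Tac1, Drd1, Pde10a and Adora2a, and the 2 vehicle circles are the highest points for Fos, Junb, Egr1 and Arc.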

How the data were processed

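Per the labels, total RNA was extracted with ISOGEN and labelled with the WT PLUS kit, and per the series' design text the authors normalised the scans by SST-RMA in Transcriptome Analysis Console. The deposited log2 signal table (22206 probe sets, 9 arrays, 2 decimals) was used, and 839 probe sets with several or no gene symbols were left out. In 1% replicate 1, 27 cells that a spreadsheet had turned into dates were read back, and each lay within 0.00518 of the deposited series matrix, an alternative table of the same arrays.

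The arrays, members, 24 marker lists and tests were chosen with earlier results of these data known. Named genes were the 16 largest called higher and 10 largest called lower whose brighter class mean reached the median signal (predicted genes were counted, not named), the 4 largest in each list, set defining markers, and the 8 most like Tbr1. Other list members, genes of families and the 8 that passed the added test are named besides, and Masp2 and Gm11096 were singled out after their values were seen. For the study contrasts the 4 of smallest p could be named. Study contrasts were fitted with limma 3.58.1 in R 4.3.3 (group plus class, lmFit and eBayes, Benjamini-Hochberg), tested on simulated data. The number of arrays limits precision. Alternatives changed the table, probe sets, size limit, class rule, centring, terms and arrays.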

Additional observations from a re-analysis of the deposited data

Results flagged for a closer look

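Over the 6 low arrays, the mean level of the striatal list set 1% replicate 3 apart, with a gap to its neighbour of 0.720 of the range, above Dixon's 95% critical value for 6 arrays. The mean level of the olfactory ensheathing glia list set 1% replicate 1 apart in the same way, at 0.718, as the lowest of the 6. Of 26 such values looked at, chance alone flags about 1 in 20.

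The high minus low difference differed between vehicle and linalyl acetate arrays, by the class-by-group term in limma, for 8 immediate early genes: Junb at -4.13, Btg2 at -3.81, Npas4 at -4.84, Fos at -4.55, Egr1 at -4.58, Arc at -3.21, Nr4a1 at -5.40 and Fosb at -3.05 log2 units. Each rests mostly on vehicle replicates 1 and 2 reading higher than vehicle replicate 3. The exposed groups add to it unevenly. Their high minus low differences were 1.655 at 1% and 1.515 at 10% for Egr1, but -0.09 and 0.085 for Fosb. The vehicle high class is 1 array whose description names a different injection.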

How the results depend on the processing

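Lowering the size limit to 1.5-fold gave 490 genes called higher and 155 lower, which hold all 198 and 16, and asking the high array to lie beyond the low arrays of its own group only gave 26 lower. A split by the pallial list without Tbr1 chose the same 3 arrays. Leaving out 1 array at a time gave 186 to 248 higher and 8 to 37 lower calls: 37 when 1% replicate 2 was dropped, 33 for 10% replicate 2 and 8 for 10% replicate 3. Against vehicle, 11 genes at 1% and 12 at 10% passed in limma once the 3 high arrays were left out, with 2 arrays left per group. Leaving out 1 array gave 0 to 12 at 1% and 0 to 14 at 10%, with vehicle replicate 3 the array whose absence gave the 12 and the 14, and 2 at 10% without its replicate 1. With the replicate number as a block, 0 genes passed at 1% and 1 at 10% (Nr4a3, limma adjusted p = 0.0453). Deviations of same-numbered arrays correlated at r from -0.161 to 0.279 after group means were removed. With the class removed as well, r ran from -0.457 to 0.310. With 3 arrays per group these values cannot decide whether the numbers pair the samples. The class-by-group term had 8 calls, 1 with the replicate block, 0 without the 1% group and 0 without the 10% group, and 1 to 9 when 1 array was left out (1 call when vehicle replicate 1 or 1% replicate 2 was dropped, 3 for vehicle replicate 2, 4 for 10% replicate 1 and 2 for 10% replicate 2). It cannot be fitted without vehicle replicate 3. List medians moved by over 1 SD in 9 of 360 alternatives and high minus low differences of single genes in 14 of 1860, and no called value changed sign. Over 223 alternatives for single genes tested, 59 results lost their call, all of them among the 8 genes of the class-by-group term. Genes of the study contrasts had no call to lose, and 3 of their results gained one. The 223 is therefore no measure of how stable the 8 calls are. Series matrix values gave 199 and 16 calls, all probe sets 207 and 16, and centring each array on its median 201 and 14. The class-by-group term and its alternatives were chosen after seeing the data.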
